A study of Mus musculus with 19 samples.

Results

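The p53 targets and cell cycle arrest genes are 10 genes chosen by symbol: Cdkn1a, Cdkn2a, Cdkn2b, Phlda3, Btg2, Mdm2, Ccng1, Trp53inp1, Bax and Trp53. Of these 10, 8 had a probe set that carries their symbol alone, 1 each, and these 8 were measured on all 19 arrays, among 14231 genes tested in all. Bax and Trp53 were not analysed here. The choice of members used no measured value, although they were picked with earlier results of these tumours known.

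The arrays come from mammary tumours of MMTV-NIC mice, whose transgene expresses activated ErbB2 and Cre recombinase from one MMTV-driven transcript in mammary epithelium. There were 4 tumours of the genotype NIC itgb1 fl/fl (Itgb1 knockout), 4 of NIC itgb3 fl/fl (Itgb3 knockout), 6 labelled NIC itgb1 fl/fl itgb3 fl/fl (labelled double knockout) and 5 labelled NIC WT, with both integrin genes intact (control). The NIC transgene is shared by all groups, controls included, and the stroma and blood vessels of a tumour do not express it, so they keep their integrins. RNA came from flash frozen tumours at end burden. Tumours are numbered within each group in accession order, so a number only names a tumour. The labels give no age and do not say whether any tumours shared an animal. The p-values therefore reflect the spread from sample to sample, which may in part be technical.

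The transcription factor p53 is kept low by Mdm2, a ubiquitin ligase that is itself a p53 target, which closes a feedback loop. When DNA damage or oncogenic signalling stabilises p53, it switches on genes that halt the cell cycle, chiefly Cdkn1a, and genes that favour cell death. The Cdkn2a locus feeds into the same network from upstream, since its Arf product blocks Mdm2 while its Ink4a product, like that of the neighbouring Cdkn2b, inhibits the cyclin D kinases. In mammary epithelium these genes are known as a brake on growth driven by oncogenes such as ErbB2.

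Promoter sequences from RefSeq (GRCm38.p6) are shown for 4 members, Cdkn1a because it is the reference target of p53, and Cdkn2b, Btg2 and Phlda3 because they had the largest positive differences described below. Capitals mark a p53 element in Cdkn1a, the cAMP response element TGACGTCA in Cdkn2b and Btg2, and the GC box GGGCGG on either strand in Phlda3.
Cdkn1a, upstream start, chr17:29090908-29090967, plus strand: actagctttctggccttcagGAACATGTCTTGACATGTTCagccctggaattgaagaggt
Cdkn2b, chr4:89311045-89311104, minus strand: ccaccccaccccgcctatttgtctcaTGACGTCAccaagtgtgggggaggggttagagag
Btg2, chr1:134079288-134079347, minus strand: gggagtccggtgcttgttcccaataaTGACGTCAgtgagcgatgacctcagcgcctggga
Phlda3, chr1:135765985-135766084, plus strand: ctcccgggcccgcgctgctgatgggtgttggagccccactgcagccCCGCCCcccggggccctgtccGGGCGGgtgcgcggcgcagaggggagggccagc

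The Cdkn1a element is the p53 consensus decamer followed directly by a second copy, with 1 mismatch in all. Such a pair, allowing up to 1 mismatch and a spacer of up to 13 bases, was found in 0.353% of the 32817 promoter windows of 250 bases in the table, and among the members with a window only in the upstream one of the 2 Cdkn1a windows. A lone exact decamer was found in the windows of Mdm2, Ccng1, Bax and Trp53 as well, against 7.12% of all windows. TGACGTCA lay in 1.55% of windows, GGGCGG in 32.7% and the CCAAT box, which lies just before the Btg2 element, in 33.8%, each searched on both strands. The motifs searched do not overlap in the stretches shown. Bases outside these windows were not searched, and Trp53inp1 had no window, so a missing match describes the windows only. A match describes the letters only, and no binding was measured here.

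As a check of the labels, the targeted genes came first. Itgb1 was lower in the Itgb1 knockouts (difference from control −1.46 on the log2 scale, SE 0.21, limma adjusted p = 0.0217) and in the labelled double knockouts (−1.84, SE 0.19, adjusted p = 0.000156). Itgb3 ran from 6.34 to 7.40 in the 4 Itgb3 knockouts, from 7.69 to 8.55 in the 6 labelled double knockouts and from 7.72 to 8.41 in the 5 controls. It was therefore not lower in the labelled double knockouts (difference 0.01, SE 0.23, adjusted p = 0.986), and every statement about that group describes tumours with the label and with low Itgb1 (7.93 to 9.20 there, against 9.83 to 10.32 in the controls, with replicate 5 the highest of the 6). Array medians lay between 4.32 and 4.48 and the most similar pair of arrays had a correlation of 0.984, so no array repeated another. Of 11 luminal epithelial markers 11 were above the intensity filter, with a summed log2 level of 95.7 to 102 over the 19 tumours.

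None of the 8 genes passed in any of 6 comparisons when p-values were adjusted over all 14231 genes at a threshold of 0.05 (limma, Benjamini-Hochberg). The share of all genes that passed was 0.00703% for Itgb1 knockouts against control, 0% for Itgb3 knockouts and 0.386% for the labelled double knockouts, so a count of 0 among 8 does not set the members apart. In the labelled double knockouts 7 of the 8 had a positive difference from control, beside 55.9% of all genes, with a median difference of 0.24 beside 0.03 over all genes. Unadjusted p-values were under 0.05 for 4 of the 8 (Phlda3, Cdkn2b, Btg2 and Mdm2), beside 16.9% of all genes. In the Itgb1 knockouts 7 of the 8 were above 0 (55.9% of all genes) and in the Itgb3 knockouts 6 of the 8 (47.6% of all genes), with medians of 0.10 and 0.07. Unadjusted p-values were under 0.05 for 0 of the 8 in both, beside 4.86% of all genes with Itgb1 deleted and 6.14% with Itgb3 deleted. The 3 with the largest differences were Phlda3, Btg2 and Cdkn2b, while Cdkn1a, Ccng1, Cdkn2a and Trp53inp1 overlapped broadly between groups.

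**Figure D1:**
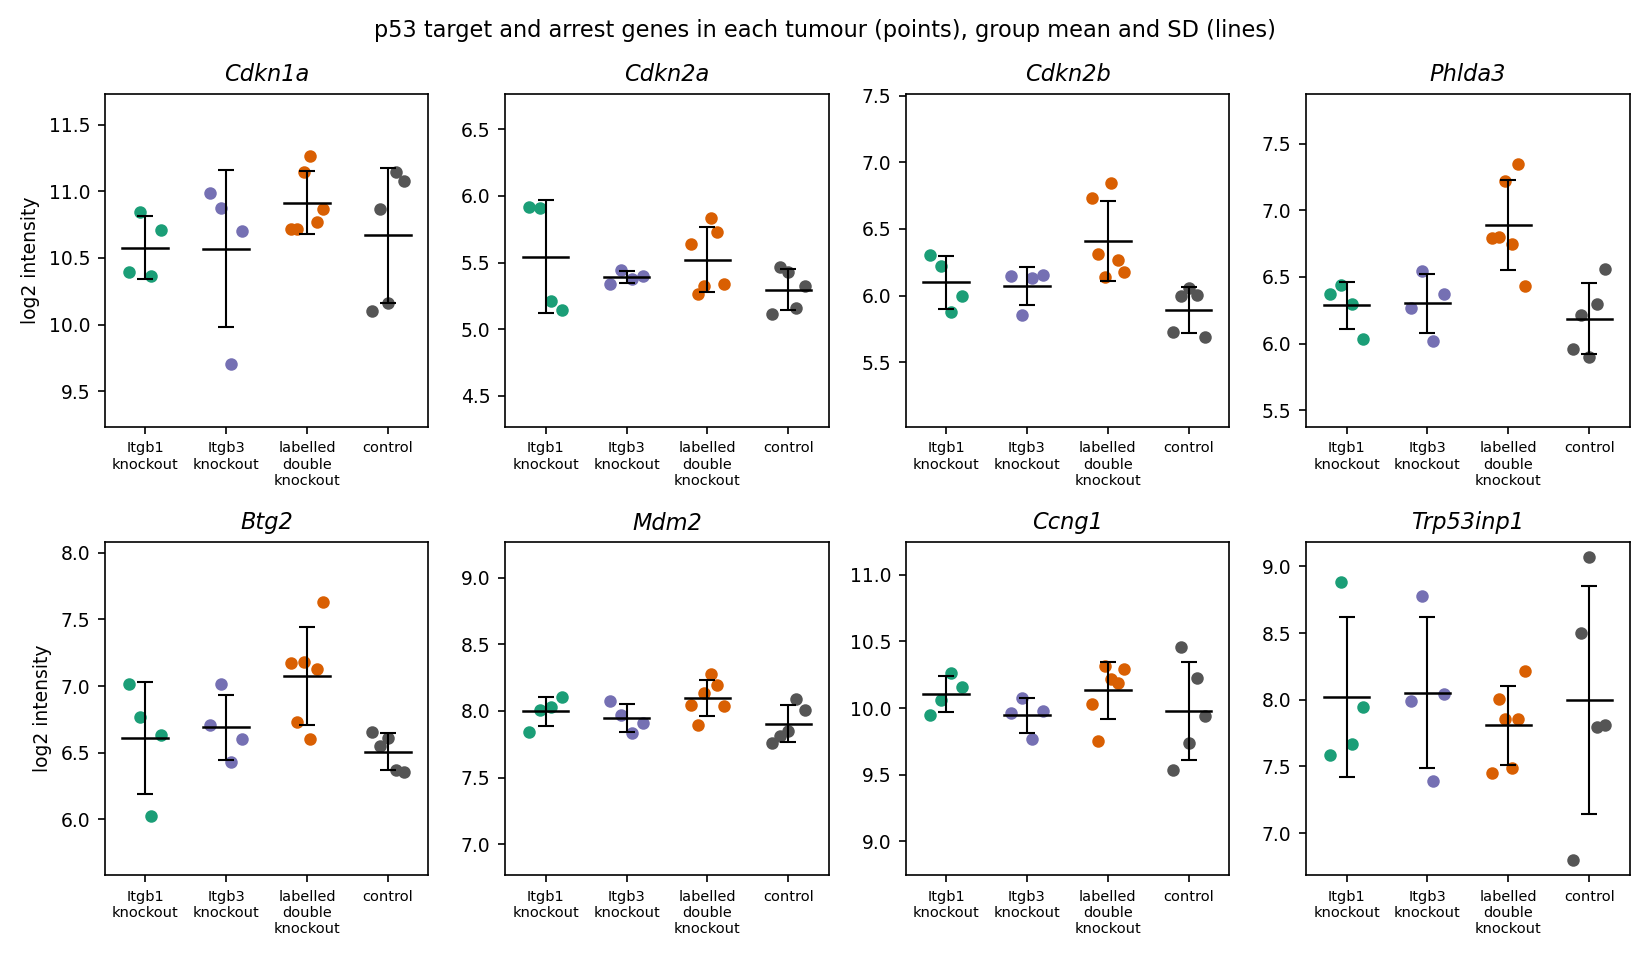
Log2 intensity (vertical axis, 2.5 log2 units in each panel) of the 8 measured genes in each of 19 tumours (points), by group along the horizontal axis, with the group mean and SD as black lines. All 6 labelled double knockouts lie above all 5 controls for Cdkn2b, and 5 of 6 do for Phlda3 and Btg2.

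Cdkn1a encodes p21, the inhibitor of cyclin-dependent kinases through which p53 stops cells before S phase. Its log2 intensity was 10.39, 10.85, 10.36 and 10.71 in the Itgb1 knockouts, 10.99, 10.87, 9.70 and 10.70 in the Itgb3 knockouts, 10.71 to 11.26 with a median of 10.82 in the labelled double knockouts, and 10.10, 10.87, 10.16, 11.14 and 11.08 in the controls. Controls 1 and 3 and Itgb3 knockout 3 were low, and the groups overlapped. Against control the difference was −0.09 in the Itgb1 knockouts (SE 0.25, adjusted p = 0.999), −0.10 for the Itgb3 knockouts (SE 0.25, adjusted p = 0.975) and 0.25 in the labelled double knockouts (SE 0.23, 95% interval −0.24 to 0.73, adjusted p = 0.623). All 3 intervals include 0. The difference of the Itgb1 knockouts was 0.03 without control 4, and that of the Itgb3 knockouts was 0.19 without Itgb3 knockout 3, so the sign of both rested on single tumours.

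Mdm2 is the ubiquitin ligase that p53 induces and that degrades p53. It read 7.84, 8.01, 8.03 and 8.11 in the Itgb1 knockouts, 8.08, 7.97, 7.84 and 7.91 in the Itgb3 knockouts, 7.90 to 8.28 (median 8.09) in the labelled double knockouts, and 7.76, 7.81, 7.85, 8.09 and 8.01 in the controls. Of the 6 labelled double knockouts 3 lay above every control. The difference was 0.19 (SE 0.09, 1.14-fold, adjusted p = 0.297). Mdm2 had the smallest spread among the members, with a within-group SD of 0.125 beside a median of 0.242 over all genes.

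Ccng1 encodes cyclin G1, a p53 target that brings a phosphatase to Mdm2. It read 9.95, 10.06, 10.26 and 10.15 in the Itgb1 knockouts, 9.96, 10.08, 9.76 and 9.97 in the Itgb3 knockouts, 9.75 to 10.32 (median 10.20) in the labelled double knockouts, and 9.53, 10.46, 9.74, 10.22 and 9.94 in the controls. The controls covered the whole range of the other groups, from 9.53 to 10.46. It differed from control by 0.13 with Itgb1 deleted, by −0.03 with Itgb3 deleted and by 0.15 in the labelled double knockouts (adjusted p = 0.987, 0.987 and 0.624).

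Phlda3 encodes a p53-induced protein with a pleckstrin homology domain that competes with Akt for membrane lipids. Its log2 intensity was 6.37, 6.44, 6.30 and 6.04 in the Itgb1 knockouts, 6.27, 6.54, 6.02 and 6.37 in the Itgb3 knockouts, 6.43 to 7.35 with a median of 6.79 in the labelled double knockouts, and 5.96, 6.21, 5.90, 6.30 and 6.56 in the controls. Of the 6 labelled double knockouts 5 lay above every other tumour, and replicate 6, at 6.43, lay below control 5. The difference from control was 0.70 (SE 0.16, 95% interval 0.37 to 1.04, 1.63-fold), with an adjusted p of 0.0577 that missed the threshold. Without labelled double knockout replicate 6 it was 0.79 (adjusted p = 0.0301) and without control replicate 5 it was 0.80 (adjusted p = 0.0377). In the single knockouts it differed from control by 0.10 (SE 0.18, adjusted p = 0.992) with Itgb1 deleted and by 0.11 (SE 0.18, adjusted p = 0.954) with Itgb3 deleted.

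Btg2, an antiproliferative partner of the mRNA deadenylation complex, is induced by p53 and also by growth factors as an immediate early gene. It read 7.01, 6.77, 6.03 and 6.63 in the Itgb1 knockouts, 6.71, 7.02, 6.43 and 6.60 in the Itgb3 knockouts, 6.60 to 7.63 with a median of 7.15 in the labelled double knockouts, and 6.66, 6.55, 6.61, 6.37 and 6.35 in the controls. The controls were tightly grouped, and labelled double knockout replicate 4 was the only one of the 6 within their range. The difference was 0.57 (SE 0.18, 1.48-fold, adjusted p = 0.137). Of the other immediate early genes measured, 22 of 22 had a positive difference, beside 55.9% of all genes. None of them passed (Klf2 0.43, Fosb 0.57 and Egr3 0.87 led). The list's mean relative to the control mean was 0.238 to 0.527 in the labelled double knockouts and −0.142 to 0.175 in the controls. In the Itgb1 knockouts it was −0.157 to 0.372, which overlaps the labelled double knockouts, and in the Itgb3 knockouts −0.054 to 0.107. The part of the list's shift in the Btg2 difference was not tested.

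Trp53inp1 encodes a stress-induced p53 target with a role in autophagy and cell death. It had the widest spread of the 8, with a within-group SD of 0.60. It read 7.58, 8.89, 7.67 and 7.95 in the Itgb1 knockouts, 7.99, 8.78, 7.39 and 8.04 in the Itgb3 knockouts, 7.45 to 8.21 (median 7.86) in the labelled double knockouts, and 6.80, 8.50, 9.07, 7.80 and 7.81 in the controls. Controls 1 and 3 held the lowest and the highest values of all 19 tumours. The difference from control was 0.03 with Itgb1 deleted, 0.06 with Itgb3 deleted and −0.18 in the labelled double knockouts (SE 0.33, 95% interval −0.88 to 0.51, adjusted p = 0.814), the only negative one among the 8 genes in that group, and without control 3 it was 0.08.

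Cdkn2b encodes p15Ink4b, an inhibitor of the cyclin D kinases that TGF-beta induces. Its log2 intensity was 6.30, 6.22, 5.88 and 6.0 in the Itgb1 knockouts, 6.15, 5.86, 6.13 and 6.15 in the Itgb3 knockouts, 6.14 to 6.84 with a median of 6.29 in the labelled double knockouts, and 5.73, 6.0, 6.06, 6.0 and 5.69 in the controls. All 6 labelled double knockouts lay above all 5 controls, which held for 1 of the 8 members and for 1.19% of all genes. For 0 of the 8 did all 6 lie above all 13 other tumours, beside 0.295% of all genes. The difference was 0.52 (SE 0.14, 95% interval 0.23 to 0.80, 1.43-fold, adjusted p = 0.0844). Replicates 1 and 4, at 6.73 and 6.84, stood highest.

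Cdkn2a lies beside Cdkn2b on chromosome 4 and encodes p16Ink4a and Arf, which 1 probe set cannot tell apart. It read 5.92, 5.91, 5.21 and 5.15 in the Itgb1 knockouts, with replicates 1 and 2 high and replicates 3 and 4 low. It read 5.34, 5.45, 5.38 and 5.4 in the Itgb3 knockouts, 5.26 to 5.84 (median 5.49) in the labelled double knockouts, and 5.12, 5.46, 5.43, 5.16 and 5.32 in the controls. It differed from control by 0.25 with Itgb1 deleted, by 0.09 with Itgb3 deleted and by 0.22 in the labelled double knockouts (adjusted p = 0.982, 0.961 and 0.464).

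**Figure D2:**
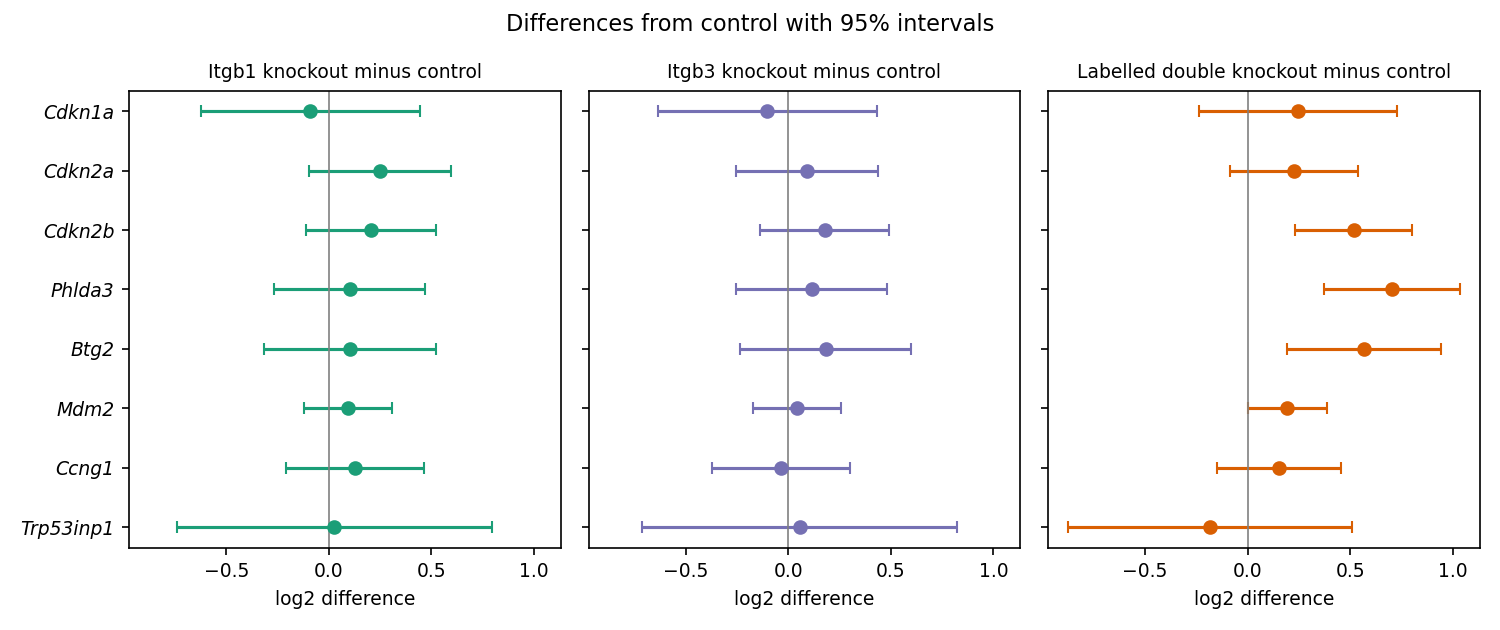
Log2 difference from control (horizontal axis) of the 8 genes (vertical axis), with a panel for each knockout group and 95% intervals from limma before adjustment. All intervals of the single knockouts include 0. Those of Phlda3, Cdkn2b and Btg2 in the labelled double knockouts lie above 0, and that of Mdm2 does so only barely (4.13e-05 to 0.385).

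Between knockout groups Phlda3, Btg2 and Cdkn2b again had the smallest p-values of the 8. The difference between labelled double knockouts and Itgb1 knockouts was 0.60 for Phlda3 (SE 0.17, adjusted p = 0.162), 0.46 for Btg2 (SE 0.19, adjusted p = 0.331) and 0.31 for Cdkn2b (SE 0.14, adjusted p = 0.393), and 0.0211% of all genes passed there. Of the 8 genes 6 were above 0 (51.1% of all genes) and 3 had an unadjusted p under 0.05 (12.3% of all genes). Against the Itgb3 knockouts the difference was 0.59 for Phlda3 (SE 0.17, adjusted p = 0.0611), 0.39 for Btg2 (adjusted p = 0.257) and 0.34 for Cdkn2b (adjusted p = 0.187), and 2.87% of all genes passed there. Here 7 of the 8 were above 0 (54.7% of all genes) and 2 had an unadjusted p under 0.05 (21.1% of all genes). Phlda3 passed against the Itgb3 knockouts without labelled double knockout replicate 6 (0.68, adjusted p = 0.0315). With each tumour left out in turn its difference there ran from 0.49 to 0.68, and it passed in no other of these fits. These comparisons share the labelled double knockout tumours with the one against control and are not independent of it. The difference of the labelled double knockouts less the sum of both single knockout differences was 0.49 for Phlda3 (SE 0.24, adjusted p = 0.423) and 0.44 for Cdkn1a (SE 0.35, adjusted p = 0.633). For the other 6 genes it lay between −0.27 and 0.28. Of the 8 genes 6 were above 0 (50.8% of all genes) and 0 had an unadjusted p under 0.05 (12.5%), and 0% of all genes passed.

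Within groups, the highest correlations between members were those among Cdkn1a, Mdm2 and Ccng1 and that between Cdkn2a and Cdkn2b, and none passed after adjustment. After each group's mean was subtracted, Cdkn1a and Mdm2 had a Pearson r of 0.69 over 19 tumours (permutation p = 0.00305, adjusted p = 0.0854) and a Spearman rho of 0.73 (permutation p = 0.00187, adjusted p = 0.0524). Cdkn1a and Ccng1 had an r of 0.62 (permutation p = 0.0145, adjusted p = 0.153) and a rho of 0.56 (permutation p = 0.0355, adjusted p = 0.257). Cdkn2a and Cdkn2b had an r of 0.63 (permutation p = 0.0164, adjusted p = 0.153) and a rho of 0.65 (permutation p = 0.0192, adjusted p = 0.257). Without the 2 tumours farthest from the median of the first gene, r was 0.64, 0.51 and 0.62 for these 3 pairs. The 28 pairs were tested with 100000 permutations within groups and adjusted together.

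Phlda3 and Cdkn1a had lower values (r = 0.49, permutation p = 0.0384, adjusted p = 0.269, and rho = 0.52, permutation p = 0.0367, adjusted p = 0.257), and r was 0.36 without the 2 farthest tumours. Phlda3 and Cdkn2b had an r of −0.23 within groups (permutation p = 0.448, adjusted p = 0.897) and a rho of −0.18 (permutation p = 0.526, adjusted p = 0.866). Phlda3 and Btg2 had an r of −0.04 (permutation p = 0.899, adjusted p = 0.966) and a rho of 0.05 (permutation p = 0.837, adjusted p = 0.937). Among the 6 labelled double knockouts, replicate 5 was highest for Phlda3, replicate 6 for Btg2 and replicate 4 for Cdkn2b.

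**Figure D3:**
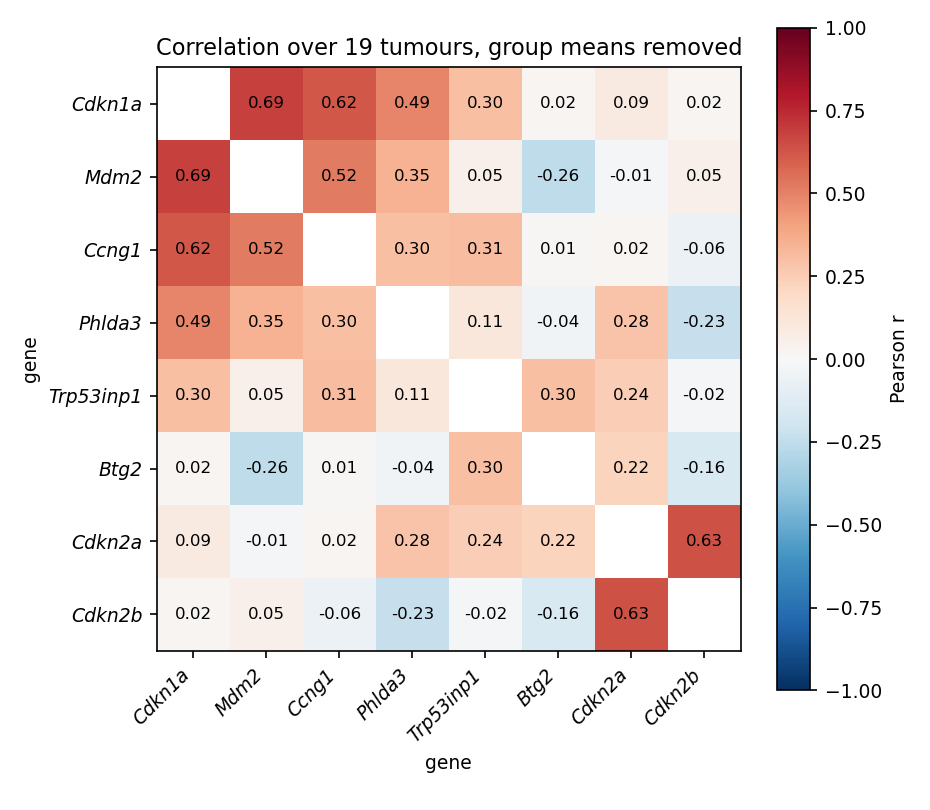
Pearson r between the 8 genes (both axes) over 19 tumours after subtraction of group means, with blue below 0 and red above. Cdkn1a, Mdm2 and Ccng1 form a block from 0.52 to 0.69, Cdkn2a and Cdkn2b reach 0.63, and Btg2 ranges from −0.26 to 0.30.

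Among all 14231 genes, the 5 whose deviations from the group means were most like those of Cdkn1a over the 19 tumours were Zfas1 (r = 0.86), Zmat3 (r = 0.79), Fam166c (r = 0.79), Alkbh5 (r = 0.78) and Maats1 (r = 0.75). They were ranked by r, so the values are a description. Zmat3 encodes an RNA-binding zinc finger protein and is an established p53 target, and Alkbh5 encodes an RNA demethylase. Of the 3 tumours low in Cdkn1a, Zmat3 was 5.68 in Itgb3 knockout 3, 5.67 in control 1 and 6.27 in control 3, which is close to the control mean of 6.29. It ran in the labelled double knockouts from 6.51 to 6.86, and in the controls from 5.67 to 6.64.

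The wider p53 target list had 43 genes, of which 38 were tested. Of the 38, 26 had a positive difference from control in the labelled double knockouts, beside 55.9% of all genes. Their median was 0.12 beside 0.03 over all genes. Aen, which encodes a nuclease of p53-dependent apoptosis, rose, and it was the 1 gene of the 38 to pass, where 0.295% of all genes passed as higher. Its log2 intensity was 5.32 to 5.78 (median 5.50) in the labelled double knockouts and 4.80, 5.16, 5.30, 4.98 and 4.89 in the controls. These groups did not overlap, as for 1.19% of all genes, with a narrow gap from 5.30 to 5.32. Itgb3 knockout 2, at 5.36, lay above the lowest labelled double knockout. Against control the difference was 0.49 (SE 0.10, adjusted p = 0.0499). The call was lost when any of 16 of the 19 tumours was left out and in 9 of 12 other alternatives. In all of them the difference was 0.43 to 0.56. The next were the heparan sulfatase gene Sulf2 (0.71, adjusted p = 0.0541) and the stress kinase gene Plk3 (0.51, adjusted p = 0.105), which did not pass. None passed in the Itgb1 or the Itgb3 knockouts. In the Itgb1 knockouts 27 of 38 were above 0 (55.9% of all genes), with a median of 0.08. In the Itgb3 knockouts 22 of 38 were (47.6% of all genes), with a median of 0.02.

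Plk3 was higher in the labelled double knockouts than in the Itgb3 knockouts. It was the 1 gene of the 38 that passed there as higher, where 2.38% of all genes did. A count of 1 among 38 does not set the list apart. The mean of Plk3 was 5.33 in the Itgb3 knockouts, 5.64 in the controls and 6.15 in the labelled double knockouts. It ran from 5.85 to 6.57 in the labelled double knockouts and read 5.35, 5.63, 5.09 and 5.26 in the Itgb3 knockouts, with no overlap, as for 5.88% of all genes (difference 0.81, SE 0.15, adjusted p = 0.016). The call was lost without Itgb3 knockout 4, and in 3 of 12 other alternatives. Plk3 was also the list's leading gene in the interaction, where it did not pass (0.70, adjusted p = 0.237).

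Upstream of p53, 17 regulators were tested. Of the 17, 8 were above 0 in the labelled double knockouts against control, beside 55.9% of all genes. Their median was −0.03, and none passed. Trp53bp2, which encodes the p53-binding protein ASPP2, differed by 0.69 (SE 0.17, adjusted p = 0.0749), Cop1, a ubiquitin ligase of p53, by 0.42 (adjusted p = 0.109) and the kinase gene Hipk2 by 0.49 (adjusted p = 0.176). Against the Itgb3 knockouts Hipk2, which phosphorylates p53, rose by 0.87 (SE 0.19, adjusted p = 0.0214), 1 of 17 that passed, where 2.38% of all genes passed as higher. The call was lost without Itgb3 knockout 1 or 4 or labelled double knockout 1, and in 4 of 12 other alternatives. In the Itgb3 knockouts the damage-sensing kinase gene Atr led without passing (−0.44, adjusted p = 0.796).

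Downstream of p53 lie apoptosis genes of the Bcl2 family. Of 13 Bcl2 family genes 10 were above 0 in the labelled double knockouts against control, beside 55.9% of all genes. Their median was 0.21, and none passed. Bak1, which forms pores in mitochondria, differed by 0.50 (adjusted p = 0.0872), Bcl2l1, which opposes it, by 0.46 (adjusted p = 0.131), and Bik by 0.47 (adjusted p = 0.216). Against the Itgb3 knockouts Bak1 rose (0.72, SE 0.14, adjusted p = 0.0163), the 1 gene of the 13 that passed, where 2.38% of all genes passed as higher. The call was lost without Itgb3 knockout 1 or 4, and in 3 of 12 other alternatives. Of 17 cell cycle inhibitors, pocket proteins and their partners, 7 were above 0 against control (median −0.04), beside 55.9% of all genes. None passed, and E2f4 (0.31), Cdkn2c (0.53) and Cdkn1c (0.32) led. Lin52, a subunit of the DREAM repressor complex, rose against the Itgb3 knockouts (0.48, SE 0.12, adjusted p = 0.0451), the 1 gene of these 17 that passed, where 2.38% of all genes passed as higher. The call was lost when any of 11 of the 19 tumours was left out and in 7 of 12 other alternatives.

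Proliferation genes, the class that these inhibitors hold back, had no common direction in the labelled double knockouts against control, and tumours varied widely. The list's mean relative to the control mean was −0.67 to 0.38 in the labelled double knockouts, with replicate 5 the lowest, and −0.40 to 0.58 in the controls. Of 33 tested, 17 were above 0 in the labelled double knockouts, beside 55.9% of all genes, with a median of 0.00, and none passed. The leading genes were Ccne1 (0.35), Birc5 (0.41) and Cdk1 (−0.28). In the Itgb1 knockouts 29 of the 33 were above 0 (55.9% of all genes), with a median of 0.14. In the Itgb3 knockouts 25 were (47.6% of all genes), with a median of 0.10. None was past the threshold in either group. Against the Itgb1 knockouts the labelled double knockouts had 7 of 33 above 0 (51.1% of all genes), with a median of −0.20. Pcna led there (−0.36, limma adjusted p = 0.392). Against the Itgb3 knockouts they had 11 of 33 above 0 (54.7% of all genes), with a median of −0.15. Aurka led there (−0.44, limma adjusted p = 0.221).

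**Figure D4:**
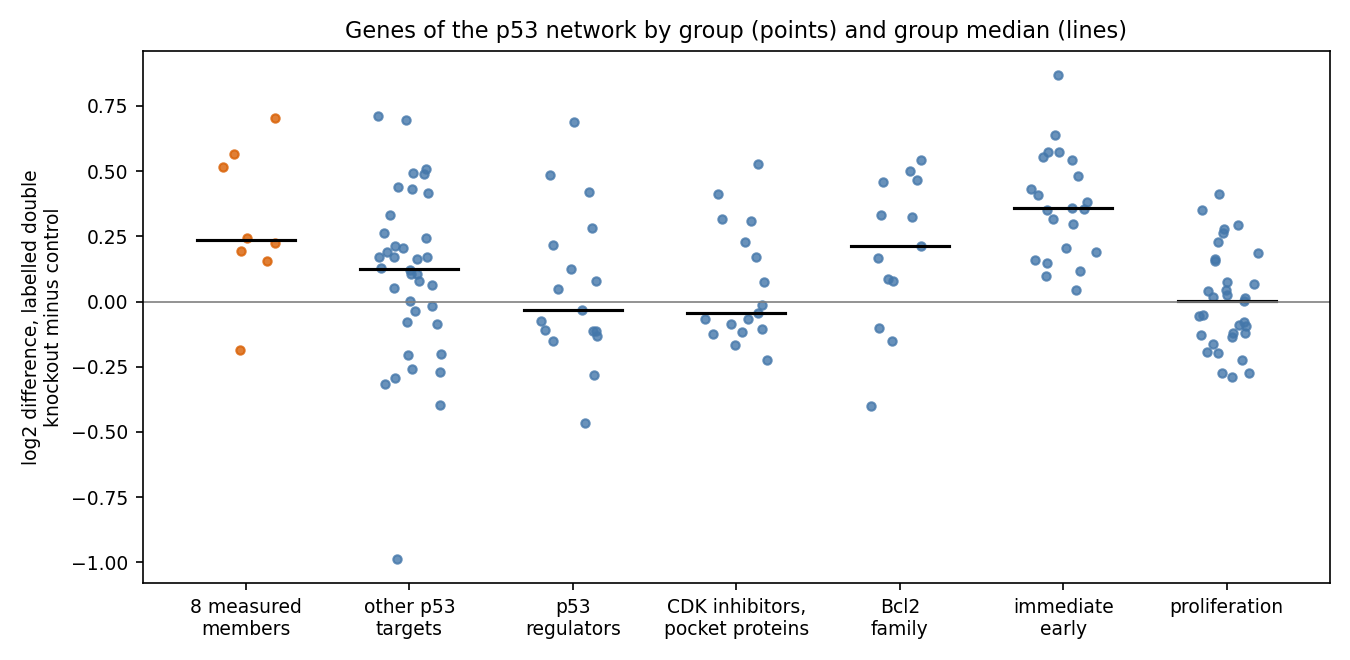
Log2 difference between labelled double knockout and control (vertical axis) of the 8 measured members and of the tested genes of 6 other lists (horizontal axis), with each gene a point and each median a black line. The medians are 0.24 for the members, 0.12 for other p53 targets, 0.36 for immediate early genes and 0.00 for proliferation genes.

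Most markers of other cell types had positive differences in the labelled double knockouts, and also in the Itgb1 knockouts. Against control the labelled double knockouts had positive differences for 12 of 13 fibroblast and 10 of 10 endothelial markers. They did for 10 of 11 macrophage and 7 of 8 T and NK cell markers. In the Itgb1 knockouts the counts were 12 of 13, 8 of 10, 10 of 11 and 5 of 8. The share of all genes above 0 was 55.9% in both groups, and none of these markers passed. The mean fibroblast marker level relative to control was −0.66 to 1.13 in the labelled double knockouts and −0.325 to 0.679 in the controls, with summed log2 levels of the 13 genes of 79.8 to 103 and 84.1 to 97.2. For the macrophage markers the mean was −0.391 to 0.727 in the labelled double knockouts and −0.376 to 0.303 in the controls (summed 82.8 to 95.1 and 83.0 to 90.5), and for the endothelial markers −0.047 to 0.634 and −0.204 to 0.407 (summed 62.6 to 69.4 and 61.0 to 67.1). In bulk tissue, more cells of a type and more RNA per cell cannot be told apart. With the mean of the fibroblast, endothelial or macrophage markers added to the fit in turn, which was chosen after seeing the data, the difference of Phlda3 was 0.76, 0.73 and 0.64, that of Cdkn2b 0.48, 0.55 and 0.51, and that of Btg2 0.63, 0.53 and 0.56, and none passed. Plk3, Hipk2, Bak1 and Lin52 passed against the Itgb3 knockouts. There 13 of 13 fibroblast and 11 of 11 macrophage markers had positive differences, beside 54.7% of all genes. Of the macrophage markers 2 passed, where 2.38% of all genes passed as higher. In the Itgb3 knockouts against control 12 of 13 fibroblast and 10 of 11 macrophage markers were below 0, and none passed. Their medians were −0.57 and −0.26, and 47.6% of all genes were above 0 there. With the fibroblast, endothelial or macrophage mean in the fit, the difference of Plk3 was 0.84, 0.82 and 0.68, that of Hipk2 0.84, 0.91 and 0.71, that of Bak1 0.62, 0.75 and 0.73, and that of Lin52 0.52, 0.48 and 0.38. None of the 4 passed in any of these fits, with adjusted p from 0.0711 to 0.274. The call of Aen against control was also lost in each, with differences of 0.52, 0.44 and 0.47. In these fits the number of all genes that passed against the Itgb3 knockouts was 21, 13 and 7, against 408 without a covariate.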

How the data were processed

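Per the labels' protocols, RNA was labelled with a whole-transcript kit for Affymetrix arrays. Per the submitters' processing notes the values were made with Affymetrix Expression Console (version not stated), and the steps of background correction and summarization are not stated. The deposited table, made by the authors, holds normalized log2 intensities of 41345 probe sets, used without further normalization. The number of arrays limits the precision, and no batch or scan date was given. Genes were named from the platform annotation. It gave 1 symbol for 23521 probe sets, several for 1814 and none for 16010, and symbols matched the GRCm38.p6 gene table for all 23328 identifiers found there. The intensity filter kept probe sets with 1 symbol that reached the table median (4.38) on at least 4 arrays, and the probe set with the highest mean was used per gene. Differences were fitted with limma 3.58.1 in R 4.3.3 over all 19 arrays, with 1 mean per group, no covariates and two-sided tests, adjusted by Benjamini-Hochberg over 14231 genes in each of 6 comparisons. The fit was tested on simulated data. For the labelled double knockouts against control it recovered 24% of true log2 differences of 0.5, 90% of those of 1 and 100% of those of 2. Differences of about 0.5 were therefore mostly missed in the simulation. Correlations used seeded permutations in Python 3.11.15. The lists and members were chosen with earlier results of these data known. Alternatives changed the filter, normalization, probe set rule, array weights, variance prior and samples, and left out each tumour in turn. Genes outside the 10 were named by rule: list members that passed, otherwise up to 3 of a list with the smallest p in a comparison, and the 5 most like Cdkn1a.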

Additional observations from a re-analysis of the deposited data

Results flagged for a closer look

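Cdkn2b in Itgb3 knockout replicate 2 was 5.86, while the other 3 tumours of that group lay between 6.13 and 6.15. Its gap to the nearest of them was 0.929 of the group's range, above the critical value for 4 samples. It was the 1 low or high sample found among 32 groups of values (8 genes in 4 groups), and chance gives about 1 in 20 groups.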

How the results depend on the processing

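No paired analysis was possible because the labels give the tumours no replicate numbers, and those used here follow accession order and pair nothing. The number of arrays and the spread of Trp53inp1 and Cdkn1a limit what could be called. Of the differences of the 8 genes under 12 alternatives, 555 kept their direction and call, 12 changed sign and 1 passed. Much of the 555 was fixed in advance. Each of the 8 had 1 probe set, above the filter on all 19 arrays, so the filter settings and the probe set rule could not change its difference. The variance prior and the fit on the groups compared could change only its p-value. None of the 8 passed in the main fit, so no call could be lost. With array weights Phlda3 passed against the Itgb3 knockouts (0.69), so 1 of the 8 passed there. In the Itgb1 knockouts Trp53inp1 was −0.0064 with quantile normalization and −0.0076 with the macrophage markers as a covariate. In the Itgb3 knockouts Ccng1 was 0.0062 with arrays centred and Trp53inp1 −0.10 with the fibroblast markers as a covariate. Between labelled double and Itgb1 knockouts Ccng1 was −0.021 with arrays centred and −0.012 with quantile normalization, and Cdkn2a was 0.087 with array weights and 0.037 with the endothelial markers as a covariate. Between labelled double and Itgb3 knockouts Trp53inp1 was 0.056 with the fibroblast markers as a covariate, against −0.24 without it. In the interaction Mdm2 was −0.031 with arrays centred and −0.013 with quantile normalization, and Ccng1 was −0.028 with arrays centred. The 3 covariates were chosen after seeing the data. The cause was not tested.

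When each tumour was left out in turn, the number of the 8 genes that passed was 0 to 1 in the labelled double knockouts against control and 0 to 1 against the Itgb3 knockouts, and the gene was Phlda3. Signs changed over these ranges. In the Itgb1 knockouts Cdkn1a ran from −0.23 to 0.027, Btg2 from −0.032 to 0.30 and Trp53inp1 from −0.27 to 0.29. In the Itgb3 knockouts Cdkn1a ran from −0.24 to 0.19, Mdm2 from −0.000846 to 0.089, Ccng1 from −0.15 to 0.085 and Trp53inp1 from −0.24 to 0.32. In the labelled double knockouts against control Trp53inp1 ran from −0.48 to 0.084. Against the Itgb1 knockouts Cdkn2a ran from −0.16 to 0.10, Ccng1 from −0.027 to 0.10 and Trp53inp1 from −0.36 to 0.0775, and against the Itgb3 knockouts Trp53inp1 ran from −0.46 to 0.00071. In the interaction Cdkn2a ran from −0.25 to 0.00873, Ccng1 from −0.059 to 0.17 and Trp53inp1 from −0.54 to 0.033.

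The number of all genes that passed varied more. In the labelled double knockouts against control it was 55, against 27 with no filter, 31 with quantile normalization, 31 with array weights, 26 with an intensity trend and robust prior, 2 in a fit on both groups alone and 20, 6 and 14 with fibroblast, endothelial and macrophage covariates, and 14 to 125 with a tumour left out. Against the Itgb3 knockouts it was 408, against 231 with quantile normalization, 272 with arrays centred, 1568 with array weights and 21, 13 and 7 with those covariates, and 56 to 459 with a tumour left out. Against the Itgb1 knockouts it was 3, against 0 with the stricter filter, 33 with array weights, 7 in a fit on both groups alone and 0 with the endothelial covariate, and 0 to 24 with a tumour left out. It was 1 in the Itgb1 knockouts, against 0 with array weights or the fibroblast or endothelial covariate, and 0 in the interaction, against 3 with array weights and 0 to 5 with a tumour left out.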
